A study of Homo sapiens with 4 samples.

Results

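The MYC and MAX network is a family of transcription factors that compete for the same partners and the same DNA element. Its genes were examined in a list of N6-methyladenosine (m6A) sites from C643 cells. The 10 genes were MYC, MYCL, MAX, MXD1, MXD3, MXD4, MXI1, MNT, MLX and MGA. A site was counted for a gene when it lay on the strand of the gene in an exon of any transcript annotated by GENCODE. By this rule 23 of the 18789 listed sites belonged to the network, and 5 of the 10 genes held them. MYC had 8 sites, MXD3 had 8, MLX had 3, and MXD4 and MNT had 2 each. MYCL, MAX, MXD1, MXI1 and MGA had 0.

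C643 is an established human cell line of anaplastic thyroid carcinoma origin, and the cells were labelled WT (wild type), untreated and of 1 group. Polyadenylated RNA of 3 biological replicates was analysed by miCLIP2, in which ultraviolet light crosslinks an anti-m6A antibody to RNA fragments and reverse transcription stops at the modified position. Replicate 1 was sequenced as 2 technical libraries, which gave 4 libraries in all. The authors made 1 joint list of sites over the replicates, chosen by m6Aboost, a machine learning classifier, and gave each site a prediction score between 0 and 1. The list holds no read counts and no values per replicate, so the depth behind a site and the spread between replicates are unknown and no test between samples could be made. It gives no expression level, so absent sites and too few reads for calling them cannot be told apart. Shares below carry 95% Wilson intervals, which cover the counting of sites or motifs and no variation between cultures. Sites of 1 transcript share reads and are not independent of each other.

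In this network MAX is the shared partner. MYC and MYCL bind DNA as dimers with MAX at E-box elements and activate genes of growth and metabolism, whereas MXD1, MXD3, MXD4, MXI1 and MNT form dimers with MAX that recruit corepressors to the same elements. MLX plays the corresponding role for the glucose-sensing Mondo proteins and also pairs with some repressors, and MGA is a very large MAX partner in a Polycomb complex. MYC mRNA and protein are both short-lived, and m6A, which the METTL3 methyltransferase complex writes mainly at DRACH motifs (D is A, G or T, R is A or G, and H is A, C or T), is known to influence how long an mRNA lasts and how it is translated.

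The sequences around sites of MXD3, MXD4, MNT and MLX are shown because they carry the motifs described below. They were read from the GRCh38 (hg38) assembly on the strand of the gene, 5′ to 3′, with DNA letters, and the listed A is the middle base of each 5-nt motif in capitals. The run from MXD3 holds 2 listed sites 9 nt apart. The window in the exon shared with RAB24 also holds the listed AGACA at 177301590, left in lower case. The highest-scoring site of each gene and the non-DRACH site were shown by rule, whereas the neighbouring site in the MXD3 run and the further sites of MXD4, MNT and MLX were added after their values were seen.
MXD3, 3′ UTR pair (chr5:177307459-177307488, minus strand): gttggaatGGACTaaaaGGACCcttgtgtg
MXD3, exon shared with RAB24 (chr5:177301586-177301606, minus strand): ggcccatgGAACGgagacagc
MXD4, coding sequence (chr4:2250649-2250669, minus strand): ggtgagctGGACAgtgttggc
MXD4, 3′ UTR (chr4:2250047-2250067, minus strand): cctggcgtGGACAaggggtct
MNT, 3′ UTR, highest score (chr17:2386744-2386764, minus strand): gggtgcaaAGACTctgagcca
MNT, 3′ UTR, further site (chr17:2386426-2386446, minus strand): ggaaagcaGAACTgaagccac
MLX, 3′ UTR, highest score (chr17:42571657-42571677, plus strand): tggccactGAACTgctgggcc
MLX, 3′ UTR, 22 nt downstream (chr17:42571679-42571699, plus strand): gggagactGGACTacaacacc
MLX, 3′ UTR, farthest from the stop codon (chr17:42571811-42571831, plus strand): tgacgataAAACTcaaaccta
GGACT was shown in both MXD3 and MLX, whereas the sites of MXD4 shared GGACA and a GAACT was shown in both MNT and MLX.

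To read these numbers, the whole list was used as background. Of 20033 protein-coding genes, 3938 (19.7%) held at least 1 site in an exon. Coding genes with sites had a median of 3 sites (quartiles 2 and 7, maximum 48), and 20.3% of them held at least 8, as MYC did. MXD3 also had 8 by the rule, but 5 without the exon it shares with another gene and 2 on its longest transcript, and 39.6% of coding genes with sites held at least 5. The 2 or 3 sites of MXD4, MNT and MLX were close to the median. For region, exon and distance each gene was represented by its longest spliced coding transcript with annotation support. The canonical transcript of Ensembl is given where it differs.

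MYC, the activator of the network and a frequent oncogene, carried its sites between 923 nt before and 155 nt after the first base of its stop codon. The gene lies on chromosome 8 from 127735434 to 127742951 on the plus strand. Its transcript has 3721 nt in 3 exons, with a coding sequence of 454 codons in the longer annotated protein form and a 3′ UTR of 1993 nt. Of the 8 sites, 5 lay in the coding sequence and 3 in the 3′ UTR. Exon 3, which has 2556 nt and contains the stop codon, held 7 of them.

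The first MYC site, at position 127738657, was the only one in exon 2. It lay at GGACT in codon 147, 923 nt upstream of the first base of the stop codon, and scored 0.903. The next 2 sites formed a pair 30 nt apart in exon 3, 365 and 335 nt upstream of the stop codon. The first of this pair, at 127740591, was GGACT in codon 333 with a score of 0.654. The second, at 127740621, was GGACA in codon 343 and had the lowest score of all 23 sites, 0.515. Of all 2528 GGACA sites in the list only 1.58% scored lower.

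The remaining 5 MYC sites lay between 65 nt before and 155 nt after the stop codon. The site at 127740891 was GGACT in codon 433 and scored 0.753. The site at 127740945, GAACT in codon 451, stood 11 nt before the stop codon and scored 0.903. In the 3′ UTR, GAACT at 127741016 scored 0.945, the highest of the network, 60 nt after the stop codon. AAACT at 127741096 scored 0.591, and only 15 nt further GGACT at 127741111 scored 0.916. Neighbouring sites of MYC were thus 558, 30, 270, 54, 71, 80 and 15 nt apart. Sites with scores above 0.90 lay in exon 2, just before the stop codon and in the 3′ UTR, with sites of lower score between them.

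The MYC transcript held 77 DRACH motifs, of which 8 were listed (10.4%, 5.36 to 19.2), beside 15544 of 212009 (7.33%) in the host transcripts of all coding genes with sites. The interval included the value of all hosts. Between the first and the last site lay 25 of the motifs, the 8 listed ones among them, while 14 lay upstream of that stretch and 38 downstream of it. By construction no motif outside that stretch was listed. Of the 5 GGACT motifs of MYC 4 were listed, and the unlisted one lay 780 nt after the stop codon. In all hosts 25.9% of GGACT motifs were listed.

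**Figure D1:**
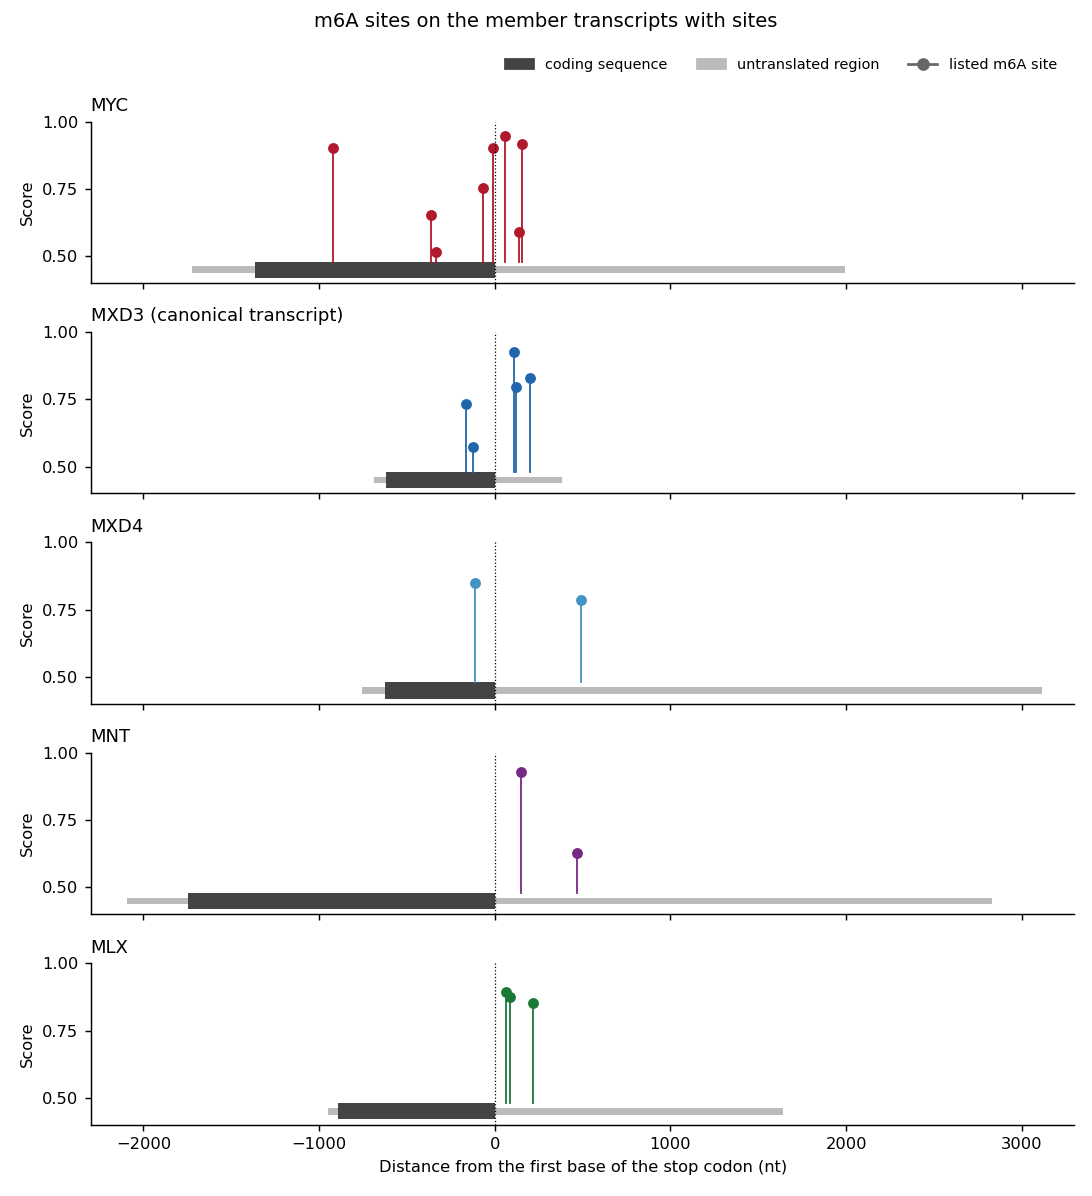
Listed m6A sites on the transcripts of the 5 network genes with sites. The x axis gives the distance from the first base of the stop codon in nt and the y axis the prediction score, with dark bars for coding sequence and light bars for untranslated regions. MXD3 is drawn on its canonical transcript, and the 3 sites in the exon shared with RAB24 are not on it. All sites drawn lie between 923 nt before and 489 nt after the stop codon, and the distal 3′ UTRs are empty.

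MYCL, the second activator among the members, acts in a narrower set of tissues than MYC. It had 0 sites, and its transcript of 3522 nt held 66 DRACH and 7 GGACT motifs. Over all coding genes the median number of DRACH motifs was 48 with a site and 58 without. When the 2 proteins were aligned from end to end, 151 residues were identical, which is 41.5% of the shorter protein. At the 5 codons with sites in MYC, the aligned codon of MYCL kept the amino acid only at MYC codon 147. There MYCL codon 93 carried the DRACH motif TGACT, which was not listed. Because MYCL had no listed motif anywhere, this outcome was fixed before the alignment. At the other 4 codons MYCL had no DRACH motif.

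MAX, the obligate partner, had 0 sites with 51 DRACH and 3 GGACT motifs in a transcript of 3155 nt. Its canonical transcript of 2010 nt held 33 DRACH and 3 GGACT motifs. MGA had 0 with 316 DRACH and 10 GGACT motifs in 14568 nt, the most motifs of any member. Its canonical transcript of 12193 nt held 270 DRACH and 7 GGACT motifs. For both genes no statement on methylation can be made, since their expression in these cells was not measured here.

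Among the repressors, MXD3 held the most sites, and its count depends on which exons are counted. MXD3 is expressed in dividing cells, unlike most of its family. Of its 8 sites, 5 lay in exons of MXD3 alone and 3 in an exon that belongs to 1 of 9 annotated MXD3 transcripts and also to its neighbour RAB24, which codes for a small GTPase. That single MXD3 transcript did not pass the filter on annotation support and was not of the protein-coding type. With that filter the 3 sites lay in exons of RAB24 and not of MXD3, and they count for MXD3 only by the rule on any annotated transcript. On the RAB24 transcript they fell in the 3′ UTR, 149, 155 and 169 nt after the stop codon. They were GAACG at 177301596 with a score of 0.634, AGACA at 177301590 with 0.615 and TGACT at 177301576 with 0.886. GAACG was the only motif of the 23 outside DRACH, so that each site assigned to a network gene alone was a DRACH site (20 of 20). RAB24 had no other site.

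The other 5 MXD3 sites lay on its canonical transcript, which has 1067 nt. In the coding sequence GGACA at 177307831 scored 0.731 in codon 152, and AGACT at 177307792 scored 0.571 in codon 165. Both lay in exon 5 of 6, which has 184 nt, 50 and 11 nt from the nearest exon junction. On the transcripts used for distances, these and the MYC site in exon 2 were the only sites outside a last exon. In the 3′ UTR GGACT at 177307478 scored 0.926, GGACC at 177307469 scored 0.794, and GGACT at 177307390 scored 0.829, at 112, 121 and 200 nt after the stop codon. The first 2 are the pair printed above, 9 nt apart, the shortest distance between sites of the network on canonical transcripts. The longest transcript of MXD3 lacks this pair, and on longest transcripts the shortest distance was 15 nt, in MYC.

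Of 17 DRACH motifs in the canonical MXD3 transcript, 5 were listed (29.4%, 13.3 to 53.1). Of these 17, 10 lay in the 3′ UTR within 500 nt after the stop codon and 0 farther away. In that zone 21.1% of DRACH motifs were listed in all coding hosts on canonical transcripts. The longest transcript of MXD3, with 2269 nt, ends in another exon, and held only the 2 coding sites among 48 DRACH motifs (4.17%, 1.15 to 13.98). The choice of transcript therefore decides the value for MXD3. For MLX it moved the value only to 6.67%, and for MYC, MXD4 and MNT both choices were the same transcript. Of the 9 annotated transcripts, 3 or 4 contained the 3′ UTR sites, and 7 or 8 contained the coding sites.

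**Figure D2:**
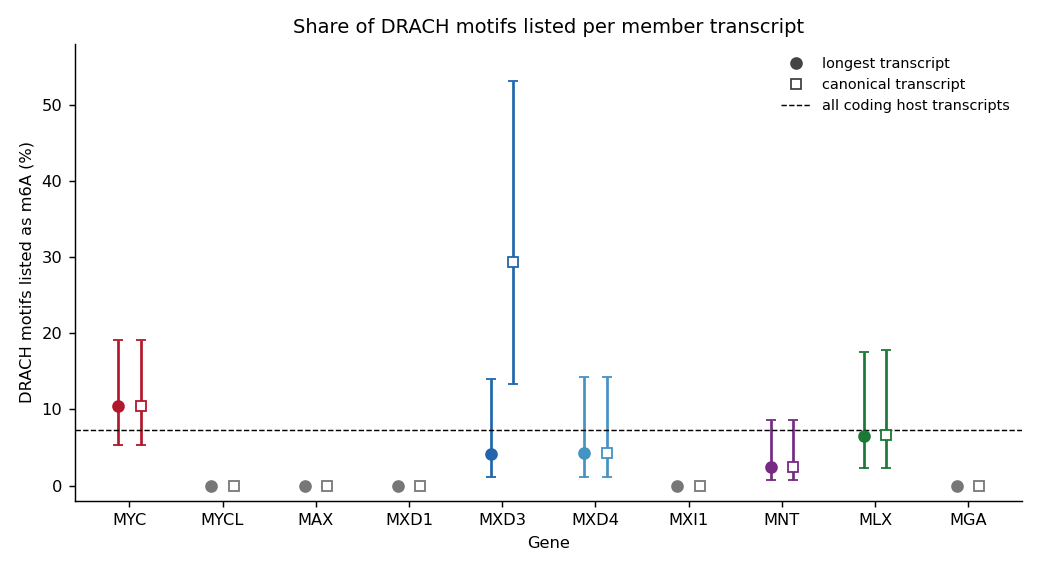
Share of DRACH motifs listed as m6A sites in each network gene, in percent, on the longest transcript (filled circles) and the canonical transcript (open squares), with 95% Wilson intervals where a site was listed. The dashed line is the share over all coding host transcripts (7.33%, longest transcripts), without regard to where the motifs lie. The intervals of the genes with sites include the line, except that of the canonical MXD3 transcript (29.4%), and the 5 genes without sites are at 0.

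MXD4 had 2 sites, both at GGACA and both in the last of 6 exons. The site at 2250659 on chromosome 4 lay in codon 172, 113 nt before the stop codon, and scored 0.851. The site at 2250057 lay 489 nt after the stop codon and scored 0.785. They were 602 nt apart with 4 unlisted DRACH motifs between them. Of its 47 DRACH motifs 2 were listed (4.26%, 1.17 to 14.2). Neither of its 2 GGACT motifs was listed, beside 25.9% of GGACT motifs at any position in all hosts. They lay 649 and 2289 nt after the stop codon. Of DRACH motifs more than 500 nt after the stop codon, 4.27% were listed in all hosts.

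The MXD proteins are paralogues, which allowed the coding sites of MXD3 and MXD4 to be followed into MXD1 and MXI1, the members of the family without sites. This comparison was chosen after the sites were seen. At MXD3 codon 152 the aligned codons of MXD1 (144) and MXI1 (226) had the same amino acid and the same GGACA motif, and neither was listed. At MXD4 codon 172 MXI1 codon 259 again had GGACA and MXD1 codon 177 had GGACT, and neither was listed. MXD3 and MXD4 did not have a DRACH motif at each other's site. At MXD3 codon 165 none of the 3 paralogues had a DRACH motif. At 2 of the 3 coding sites both paralogues without sites therefore had a DRACH motif, and at 1 of these it was the same motif in both. MXD1 and MXI1 had no listed motif anywhere, so the lack of listing at these codons was fixed before the alignment. Absent sites and too few reads cannot be told apart here. Between 44.7% and 54.1% of the residues of the shorter protein were identical in the pairs compared.

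MXD1 had 103 DRACH motifs and 2 GGACT motifs in 5549 nt, of which most is a 3′ UTR of 4661 nt. Both of its GGACT motifs lay in the coding sequence, 155 and 134 nt before the stop codon. MXI1 had 74 DRACH and 2 GGACT motifs in 3470 nt. Neither gene had a listed motif.

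MNT, the repressor that is present in both resting and growing cells, had 2 sites in its 3′ UTR in exon 6 of 6, on chromosome 17. AGACT at 2386754 scored 0.928, the second highest score of the network, 149 nt after the stop codon. Of all AGACT sites 94.9% scored lower. GAACT at 2386436, 467 nt after the stop codon, scored 0.630, and only 11.2% of GAACT sites scored lower. Both lay in 1 of 9 annotated transcripts, the one used here. Of the 80 DRACH motifs 2 were listed (2.50%, 0.688 to 8.66). Neither site was a GGACT. Of the 7 GGACT motifs of MNT 0 were listed, beside 25.9% of GGACT motifs in all hosts. Among these 7 was 1 at 191 nt after the stop codon, while others lay 768, 1733 and 2558 nt after it.

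MLX, which pairs with Mondo proteins, had 3 sites, all in the 3′ UTR in exon 8 of 8 and all with scores above 0.85. GAACT at 42571667 scored 0.895, GGACT at 42571689 scored 0.873 and AAACT at 42571821 scored 0.852, at 66, 88 and 220 nt after the stop codon. The distances between them were 22 and 132 nt. Each scored above the median of its own motif. Of 46 DRACH motifs 3 were listed (6.52%, 2.24 to 17.5). The coding sequence of MLX held 17 DRACH motifs and 0 sites. In all hosts 6.29% of the DRACH motifs of coding sequences were listed.

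Across the network, 22 of 23 sites were DRACH (95.7%, 79.0 to 99.2), beside 88.7% of all sites. GGACT gave 7 of them, GAACT 4, GGACA 4, AAACT 2 and AGACT 2. GGACT made up 30.4% (15.6 to 50.9) of the sites, beside 21.7% of all. Sequence was an input of the classifier, so motif and listing are not independent measures, and the intervals include the values of the whole list.

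Of the 17 sites on longest transcripts 8 lay in the coding sequence, 9 in the 3′ UTR (52.9%, 30.96 to 73.8) and 0 in the 5′ UTR, beside 55.4% of all sites in the 3′ UTR. The last exon held 14 (82.4%, 58.97 to 93.8), beside 76.5%. The first base of the stop codon was at most 200 nt away from 11 of 17 (64.7%, 41.3 to 82.7), beside 33.3% of all sites on coding transcripts. On canonical transcripts it was 14 of 20 (70.0%, 48.1 to 85.5) beside 34.5%. The share near the stop codon was 66.7% without MYC and 60% without MXD3. Neither interval included the value of the whole list, but the sites come from 5 genes and are not independent, transcript region was an input of the classifier, and no test was made.

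The distal 3′ UTRs were empty in every network gene with sites. A boundary of 500 nt after the stop codon was set after the sites had been seen. Closer than that lay 44 DRACH motifs of the 3′ UTRs, of which 9 were listed (20.5%, 11.2 to 34.5), beside 20.4% in all coding hosts. Farther away lay 158, of which 0 were listed, whereas 4.27% of such motifs were listed in all coding hosts. Because the boundary was set to lie beyond the farthest site, the 0 is a description. On canonical transcripts the distal motifs numbered 132, again with 0 listed, beside 4.18% in all coding hosts. Of these 33 lay in MYC, 34 in MXD4, 45 in MNT and 20 in MLX, and MXD3 had none.

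Spacing was measured between neighbouring sites. Of 12 neighbouring pairs on the longest transcripts 4 were at most 50 nt apart (33.3%, 13.8 to 60.9), beside 32.3% of all neighbouring pairs. At a score of at least 0.7 it was 1 of 7 (14.3%), beside 29.7%. With so few pairs no likeness or difference can be read from these values. Of 8 coding sites 3 were within 100 nt of an exon junction (37.5%, 13.7 to 69.4), beside 30.5% of all coding sites. These 3 were the 2 MXD3 sites and the MXD4 site.

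In each of the 8 coding sites the A stood at the second place of its codon, which was GAC, for aspartate, in 7 and AAC, for asparagine, in 1. Over all coding sites outside stop codons the A was at the second place in 58.3%, at the first in 21.6% and at the third in 20.1%. The codon was GAC in 47.7% and AAC in 8.68%. This was noticed in the data and is a description, with the frame counted from the annotated coding start.

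Scores of the 23 sites had a median of 0.829 (quartiles 0.644 and 0.899, range 0.515 to 0.945), beside 0.754 over all sites. The 95% order-statistic interval of the median, 0.654 to 0.895, included the latter. Since scores differ between motifs, each was also set beside the median of its own 5-nt motif. By that measure 13 of 23 lay above it. MLX was above in 3 of 3, and so were both MXD4 sites (0.851 and 0.785, beside 0.763 for GGACA). MYC was above in 4 of 8, and MXD3 and MNT had sites on each side. The score is a property of the classifier and not a stoichiometry.

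**Figure D3:**
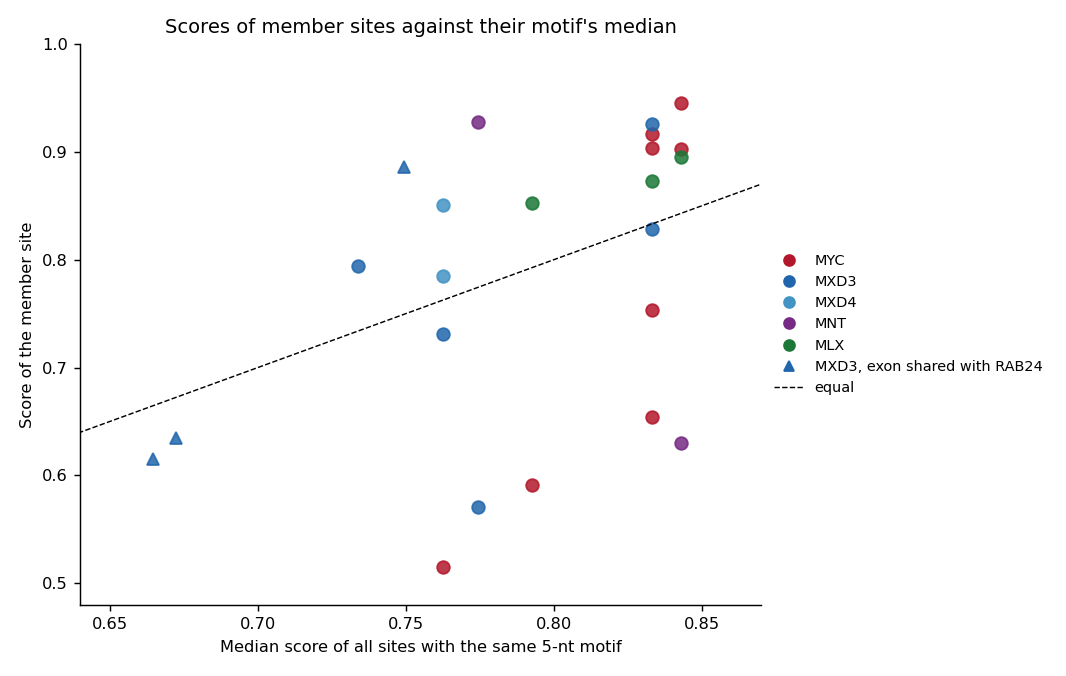
Prediction score of each of the 23 network sites (y axis) against the median score of all listed sites with the same 5-nt motif (x axis), coloured by gene, with triangles for the 3 sites in the exon shared with RAB24. The dashed line marks equality, and 13 of 23 points lie above it.

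Members with and without sites were also compared for base composition and length. The GC content of the longest transcripts with sites was 48.8% in MYC, 51.8% in MLX, 55.8% in MXD3, 61.3% in MNT and 63.5% in MXD4. Without sites it was 42.2% in MGA, 42.5% in MXD1, 43.7% in MXI1, 51.3% in MAX and 56.4% in MYCL. The ranges overlapped through MAX and MYCL. Over all coding genes the median was 57.1% with a site and 46.6% without. Transcript lengths overlapped as well. The longest transcripts, of MGA (14568 nt) and MXD1 (5549 nt), had no sites and the shortest, of MXD3 (2269 nt) and MLX (2586 nt), had sites. Between them MNT (4925 nt), with sites, was longer than MYCL, MAX and MXI1, without. Over all coding genes the median length was 2817.5 nt with a site and 3025.5 nt without. The part of base composition or of expression in which members were listed was not tested.

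**Figure D4:**
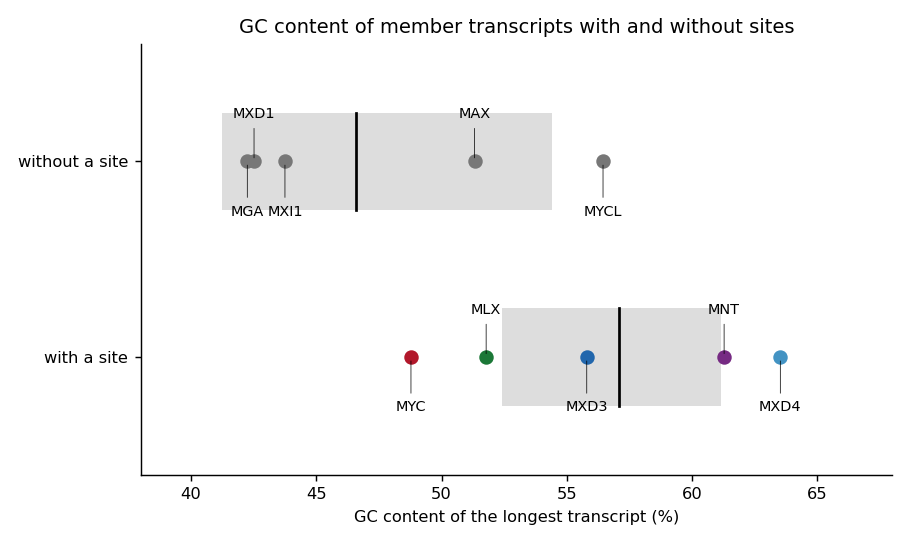
GC content in percent of the longest transcript of each network gene, for the 5 genes with a site and the 5 without. Shaded bars give the quartiles and black lines the medians over all coding genes with a site (57.1%) and without (46.6%). MXD1, MXI1 and MGA lie below all 5 members with sites, and MAX and MYCL lie within their range.

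The surroundings of the network were described with a list of 73 further genes. Of these, 39 held 147 sites, beside 19.7% of all coding genes with a site. The list contains many genes that are expressed in most cells, and expression was not measured here, so the share is not read as a result about the pathway.

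Among the closest relatives, MLXIP, which codes for the glucose sensor MondoA and is the partner of MLX, had 13 sites, more than any member. All 13 lay in the 3′ UTR, from 218 to 1701 nt after the stop codon, and 12 of its 127 DRACH motifs were listed (9.45%, 5.49 to 15.8). MYCN and MLXIPL, the relatives with narrower tissue expression, had 0 each with 28 and 59 DRACH motifs. TXNIP and ARRDC4, the 2 genes taken as targets of MondoA and MLX, had 0 each.

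Of the 8 corepressor genes that serve the MXD and MNT proteins, 3 held sites, with 12 in SIN3B. Of the 11 genes of the MGA complex 4 held sites, with 10 in L3MBTL2. Of the 13 MYC coactivators and partners 11 held sites, with 7 in KAT2A, a histone acetyltransferase. Of the 16 genes for turnover and phosphorylation of the MYC protein 7 held sites, with 7 in USP36, a deubiquitinase that stabilises MYC. Of the 20 classic MYC targets 13 held sites, with 9 in E2F1, a cell cycle transcription factor. In the list as a whole the median GC content was 57.4% in genes with sites and 44.2% in those without.

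**Figure D5:**
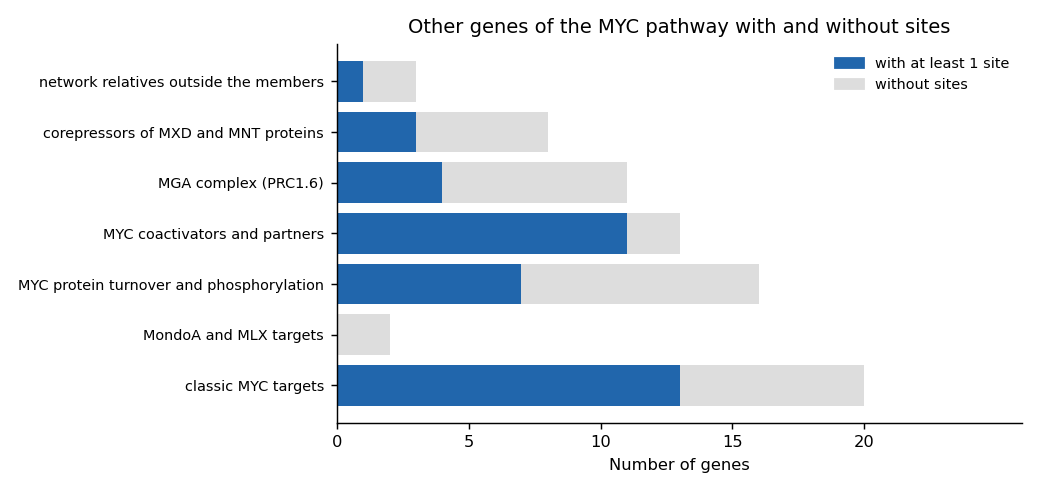
Number of genes with at least 1 listed site (blue) and without sites (grey) in each of the 7 groups of other MYC pathway genes. The coactivators have 11 of 13 genes with sites, the corepressors 3 of 8 and the targets of MondoA and MLX 0 of 2. Over all coding genes 19.7% hold a site, and differences between groups were not tested.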

How the data were processed

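Polyadenylated RNA of untreated C643 cells was profiled by miCLIP2 (3 biological replicates, 4 libraries). The authors aligned the reads to GRCh38.p12 with STAR 2.7.3a, removed duplicates with UMI-tools 1.0.0, called peaks per replicate with PureCLIP, kept those found in at least 2 replicates and classified them with m6Aboost. The deposited prediction score is a fraction from 0 to 1 (lowest 0.50). The classifier read sequence, region, C-to-T transitions in reads and the signal of a peak relative to the peaks of its transcript. Peaks also need reads, so all of these shape the list. Depth per site is unknown.

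Sites were placed on GENCODE 44 (the authors used release 31) on the same assembly, and all 18789 lay at an A. Longest spliced coding transcripts had a support level of at most 3, or none, and an annotation level of at most 2. In a test of the mapping between genome and transcript, 4200 of 4200 positions planted on 210 annotated transcripts were recovered. It did not test the calling of sites. Proteins were aligned globally with BLOSUM62. Every member and site is named, and in the pathway list 3 relatives and the genes with most sites per group, apart from 1 gene that is not reported here. Members and lists were chosen with earlier results of these data known. Alternatives changed score threshold, transcript, motif, windows and genes. Python 3.11.15, numpy 2.4.6, scipy 1.17.1, pysam 0.24.0, Biopython 1.88 and matplotlib 3.10.9 were used.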

Additional observations from a re-analysis of the deposited data

How the results depend on the processing

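The number of sites was 16 at a score of at least 0.7, 20 in exons of supported transcripts, 17 on the longest transcripts and 20 without exons shared with another gene. The same 5 genes held sites at the higher score and on the longest transcripts. The share at DRACH moved from 95.7% to 100% at a score of at least 0.7 (16 of 16), beside 94.5% of all sites at that score. With the wider motif RAC it was 23 of 23, beside 94.7% of all sites. It was also 100% without MXD3 (15 of 15) and without shared exons (20 of 20), the last chosen after seeing the data. The share of motifs listed was 27.8% for GGACT only, beside 25.9% in all coding hosts. The other 28 of 33 alternatives moved values by less than their interval or 1.5 times. MYC and MXD3 tied for most sites by the rule on any annotated transcript, so each was left out in turn. The site list is joint over the replicates, so no replicate could be left out. No paired analysis was possible because the list carries no replicate values and the design has 1 group. The unknown depth limits every count, above all those of 0.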

Other observations

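The corepressor genes include the close paralogues SIN3A and SIN3B, which were set side by side after their values were seen. SIN3B had 12 sites, with 9 of 93 DRACH motifs listed, whereas SIN3A had 0 of 129. GC content was 60.4% in SIN3B and 47.1% in SIN3A. Expression of both genes was not measured here, and its part was not tested.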
